A study of Mus musculus with 136 samples.

Results

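Hnf4a, Gata4, Gata6, Foxa1, Foxa2, Sox17, Sox7 and Hhex encode transcription factors of the endoderm. They were taken by gene symbol, and all 8 were found among the 47643 genes counted in embryos and visceral yolk sacs of NOD mice, a strain whose females can become diabetic spontaneously. The labels pair 1 embryo library with 1 yolk sac library under each of 66 concepti dissected at E8.5, and all dams and concepti were of that strain. Normal dams had blood glucose values of 105 to 164 mg/dl, and diabetic dams 423 to 595 mg/dl apart from 1 litter listed only as higher. With 5–6 somite pairs there were 17 concepti of 10 normal litters and 17 of 9 diabetic litters, and with 7–9 somite pairs 16 of 7 normal litters and 16 of 6 diabetic litters, 7 of these from a single dam, D24M15. Values are normalized counts, that is, counts of unique molecular identifiers (UMI, 1 per captured RNA molecule) divided by the size factor of the library, and are given as mean ± SD.

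Endoderm arises in the mouse conceptus in separate waves. The primitive endoderm of the blastocyst gives rise to the parietal endoderm and to the visceral endoderm, which becomes the absorptive and secretory outer layer of the visceral yolk sac, while the definitive endoderm leaves the primitive streak at gastrulation and lines the gut of the embryo. GATA6, GATA4, SOX17 and SOX7 act in the primitive endoderm and its derivatives, HNF4A drives the genes for apolipoproteins and other serum proteins in visceral endoderm, FOXA1 and FOXA2 open chromatin in gut endoderm, and HHEX acts in anterior visceral endoderm, in the foregut that forms liver and thyroid, and in endothelial progenitors. Several of these genes also have sites outside endoderm, such as Foxa2 in node, notochord and floor plate, Gata4 and Gata6 in heart, and Sox17, Sox7 and Hhex in endothelium.

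Each library held 1017901 to 5658850 counts, with a median of 2302819. No library of the 66 concepti carried Xist or Y-linked RNA against its own sex label. In 2 concepti, D28M27C with 5–6 and N28M07E with 7–9 somite pairs, the embryo and the yolk sac carried different sex labels, so that these libraries cannot be of 1 conceptus. All tests of the 8 genes were therefore repeated without both, and a result that this changed is given with it. Over the other 64 concepti the yolk sac was the higher of the pair in 64 for Hnf4a and Gata4, 63 for Foxa2, 61 for Sox17, 57 for Sox7, 51 for Gata6, 38 for Hhex and 0 for Foxa1, and counts over 66 below include both. Such pair counts were not made over all genes. The yolk sac libraries carried visceral endoderm RNA, with 9 markers of the layer (the endocytic receptor genes Amn and Cubn, the carriers Rbp4, Ttr and Afp, and the apolipoproteins Apom, Apob, Apoa4 and Apoa1) higher than in embryos in each of the 4 comparisons of tissues. Whole tissues were sequenced, so that fewer cells of a type and less RNA per cell cannot be told apart, and endoderm is a minor part of the embryo libraries. A 3′ tag is counted once per molecule whatever the length of the transcript, so that levels of different genes are set side by side below as captured 3′ ends.

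Sequences of 300 bases at the transcription start are shown for the genes on which the results turn, namely Hnf4a and Foxa1, which stood at opposite ends of the comparison of tissues, and Hhex, which was called lower in diabetic than in normal embryos with 5–6 somite pairs in the test over embryos, though not with the litter as a block or with counts summed per litter. They were taken from RefSeq on GRCm38.p6 and run from 250 bases before to 50 bases after the start. Entries were at hand for 4 of the 8 genes. Capitals mark the motifs searched on both strands, none of which overlapped another, with AGATAA for GATA factors, TGTTTAC for forkhead factors, CAAAGTCCA for HNF4 and GTTAAT as a half-site of HNF1. Hnf4a has 2 starts in this collection, at chr2:163506607-163506906 and chr2:163546905-163547204 on the plus strand. The start of Foxa1 is at chr12:57546062-57546361 on the minus strand and that of Hhex at chr19:37434591-37434890 on the plus strand.
Hnf4a, start 1: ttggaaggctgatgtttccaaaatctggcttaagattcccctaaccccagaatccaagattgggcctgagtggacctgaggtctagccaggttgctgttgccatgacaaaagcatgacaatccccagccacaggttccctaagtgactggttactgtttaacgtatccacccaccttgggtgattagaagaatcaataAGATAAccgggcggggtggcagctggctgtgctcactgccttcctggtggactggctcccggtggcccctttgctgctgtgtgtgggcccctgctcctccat
Hnf4a, start 2: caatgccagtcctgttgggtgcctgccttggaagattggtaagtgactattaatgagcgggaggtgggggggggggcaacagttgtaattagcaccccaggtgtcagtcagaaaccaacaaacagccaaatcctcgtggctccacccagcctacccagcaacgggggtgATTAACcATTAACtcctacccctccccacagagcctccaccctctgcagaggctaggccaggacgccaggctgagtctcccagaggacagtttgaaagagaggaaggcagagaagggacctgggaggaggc
Foxa1: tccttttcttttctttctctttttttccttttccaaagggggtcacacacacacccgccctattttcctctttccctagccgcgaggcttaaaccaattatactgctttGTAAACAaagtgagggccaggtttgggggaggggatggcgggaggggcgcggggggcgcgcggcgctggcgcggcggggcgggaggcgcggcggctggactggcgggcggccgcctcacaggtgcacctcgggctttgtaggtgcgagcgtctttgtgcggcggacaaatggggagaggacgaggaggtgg
Hhex: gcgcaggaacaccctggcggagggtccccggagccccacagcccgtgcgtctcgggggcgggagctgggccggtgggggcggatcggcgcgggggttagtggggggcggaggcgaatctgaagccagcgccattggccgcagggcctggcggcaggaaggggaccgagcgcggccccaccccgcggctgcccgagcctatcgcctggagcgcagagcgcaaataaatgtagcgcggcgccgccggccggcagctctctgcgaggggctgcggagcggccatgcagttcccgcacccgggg

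The first start of Hnf4a held 1 GATA match, and the second held 2 HNF1 half-sites in the reverse direction with 1 base between them. Foxa1 held 1 forkhead match, read on the other strand, and none of the 4 motifs was in the window of Hhex. Among all 32851 RefSeq windows of this length, 11.2% held the GATA letters, 3.65% the forkhead letters, 0.475% the HNF4 letters and 7.1% the HNF1 half-site. The Hhex window had a GC content of 75.7% and 37 CpG, against 62.3% and 26 in Foxa1 and 54% and 57.3% with 4 CpG each at the Hnf4a starts. The counts read the 3′ end of a transcript and do not tell the Hnf4a starts apart.

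The comparison of yolk sac with embryo shows in which whole tissue each factor was higher. It does not assign a factor to visceral or gut endoderm. In normal concepti with 5–6 somite pairs, summed parietal endoderm markers had medians of 3331 in yolk sacs and 1542 in embryos. Endothelial markers had 1348 and 839.2, and heart markers 362.9 and 1659. The part of these cell types in the differences was not tested. Of the 8 genes, 6 were called higher and 1 lower in yolk sacs of normal concepti with 5–6 somite pairs, 5 higher and 1 lower with 7–9 pairs, 7 higher and 1 lower in diabetic concepti with 5–6 pairs, and 5 higher and 1 lower with 7–9 pairs (edgeR quasi-likelihood test, adjusted p under 0.05). The tissues differed in most genes, with 70.6% and 75.2% of all tested genes called in normal concepti of the earlier and later stage and 70.9% and 72.8% in diabetic concepti, so that the count of calls is close to that background. The median log2 difference of the members that passed the filter on low counts was 1.07, 1.10, 1.18 and 1.37 in the same order, beside medians between -0.04 and 0.00 over all tested genes. All 8 passed it in 3 of these comparisons, and Sox7 did not in the last. Hnf4a and Sox7 did not pass it in comparisons of embryos alone, nor Foxa1 in those of yolk sacs alone. Between tissues these genes passed through the tissue where they were higher, so that their direction is tied to the filter. The counts of calls and the medians include them where they passed.

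**Figure D1:**
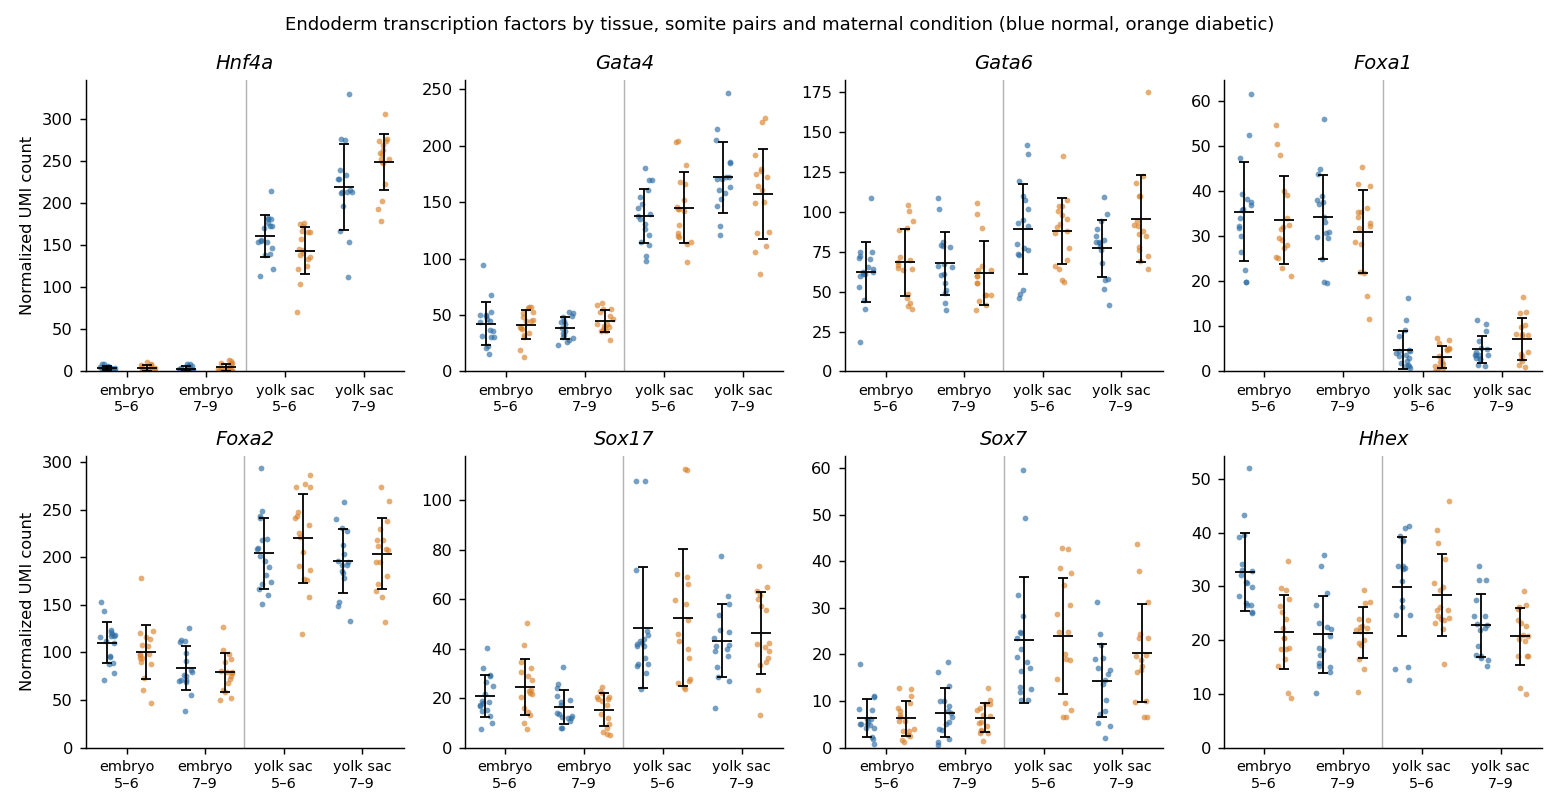
Normalized UMI counts of the 8 genes in the embryo and yolk sac libraries of 66 concepti, by tissue, number of somite pairs and maternal condition (blue normal, orange diabetic). Points are libraries and bars the mean ± SD of 16 or 17 libraries, on an axis that starts at 0 and differs between genes. Hnf4a reaches at most 13.2 in embryos and at least 70.9 in yolk sacs, Foxa1 lies higher in embryos, and Hhex lies at similar levels in both tissues.

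Hnf4a (ENSMUSG00000017950; chromosome 2, 163506808 to 163572910, plus strand), a nuclear receptor that binds the promoters of apolipoprotein genes, separated the tissues completely. In the 66 embryos it ranged from 0 through a median of 2.63 to 13.2 normalized counts, and in the 66 yolk sacs from 70.9 through 177.6 to 329.7. No embryo reached the lowest yolk sac. How many of all genes separated the tissues in this way was not counted. The yolk sac level was 42.5-fold and 61.7-fold that of the embryo in normal concepti of the earlier and later stage (log2 5.41 ± 0.18 and 5.95 ± 0.20, SE) and 38.5-fold and 56.7-fold in diabetic concepti (5.27 ± 0.22 and 5.83 ± 0.24), with adjusted p of 1.7e-22 or lower by edgeR. No molecule was counted in 1 and 1 normal embryos and in 2 and 1 diabetic embryos of the earlier and later stage, and no embryo library held more than 14.

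Gata4 (ENSMUSG00000021944; chromosome 14, 63198922 to 63271692, minus strand), a zinc finger factor of yolk sac endoderm, foregut and heart, was higher in the yolk sac of each of the 66 concepti. Embryos had 12.8 to 93.9 normalized counts with a median of 41.7, and yolk sacs 86.1 to 246.7 with a median of 150.8. The ranges met in a single embryo, which lay above the lowest yolk sac. Yolk sacs were higher by 3.32-fold, 4.52-fold, 3.68-fold and 3.55-fold in the 4 groups of concepti (normal earlier and later, then diabetic earlier and later), with adjusted p between 9.8e-21 and 4.1e-13.

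Gata6 (ENSMUSG00000005836; chromosome 18, 11052064 to 11085635, plus strand), the related factor that specifies primitive endoderm, differed far less. Its counts were 18.2 to 109 in embryos and 41.5 to 175.1 in yolk sacs, with medians of 63.8 and 86.5, and the yolk sac was higher in 52 of 66 concepti. The ranges overlapped for most libraries. It was higher in yolk sacs by 1.46-fold in normal concepti of the earlier stage (log2 0.54 ± 0.16, adjusted p = 0.0022 by edgeR), by 1.35-fold in diabetic concepti of the earlier stage (0.43 ± 0.13, adjusted p = 0.00446) and by 1.54-fold in those of the later stage (0.62 ± 0.14, adjusted p = 1.8e-04). In normal concepti of the later stage the difference of 0.20 had a 95% interval of -0.06 to 0.46 and did not pass the test (adjusted p = 0.159).

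Foxa2 (ENSMUSG00000037025; chromosome 2, 148042877 to 148046969, minus strand), a forkhead factor of definitive and visceral endoderm, node and floor plate, was the member with the most counts in embryos. Embryos ranged from 38.4 to 178.5 with a median of 93.9, and yolk sacs from 119 to 293.4 with a median of 204.3. It was higher in the yolk sac of 65 of 66 concepti, by 1.9-fold to 2.59-fold over the 4 groups, and 10 embryos lay above the lowest yolk sac.

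Foxa1 (ENSMUSG00000035451; chromosome 12, 57540628 to 57546916, minus strand), a close relative of Foxa2 that shares its DNA motif, went the other way. It was higher in the embryo than in the yolk sac of all 66 concepti. Embryos had 11.7 to 61.6 normalized counts with a median of 32.7, and yolk sacs 0 to 16.6 with a median of 3.83, which came from 0 to 16 molecules a library. Ranges overlapped in 4 yolk sacs. The embryo level was 7.15-fold and 6.74-fold that of the yolk sac in normal concepti of the earlier and later stage, and 9.47-fold and 4.61-fold in diabetic concepti, with adjusted p of 6.5e-11 or lower by edgeR. Foxa2 and Foxa1 thus differed in opposite directions between the same libraries.

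Sox17 (ENSMUSG00000025902; chromosome 1, 4490931 to 4497354, minus strand), an SRY-related factor of primitive and definitive endoderm and of arterial endothelium, was higher in 63 of 66 yolk sacs than in their embryos. Its embryos had 5.11 to 50.3 normalized counts and its yolk sacs 13.2 to 112.4, and the ranges overlapped. The ratio of yolk sac to embryo was 2.33, 2.67, 2.23 and 2.98 in the 4 groups, with adjusted p of 2.4e-05 or lower.

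Sox7 (ENSMUSG00000063060; chromosome 14, 63943673 to 63950732, plus strand), from the same SOX subfamily, had few molecules in embryos, with 0.653 to 18.4 normalized counts, against 2.16 to 59.6 in yolk sacs. The yolk sac was higher in 59 of 66 concepti. The ratio was 3.58 and 1.98 in normal concepti of the earlier and later stage and 3.85 in diabetic concepti of the earlier stage (adjusted p of 7.5e-08, 0.00269 and 6.7e-08). In diabetic concepti of the later stage it did not pass the filter on low counts, and the test without that filter gave a ratio of 3.16 (adjusted p = 1.7e-07).

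Hhex (ENSMUSG00000024986; chromosome 19, 37434810 to 37440731, plus strand), a homeodomain factor needed for the liver and thyroid buds, was nearly balanced between the tissues. Embryos ranged from 9.27 through 23.5 to 52.1 and yolk sacs from 9.93 through 24.6 to 46, with the yolk sac higher in 39 of 66 concepti. The log2 difference was -0.08 in normal concepti of the earlier stage (95% interval -0.36 to 0.20), 0.11 (-0.19 to 0.42) in those of the later stage and -0.01 (-0.29 to 0.26) in diabetic concepti of the later stage. It was higher in yolk sacs of diabetic concepti with 5–6 somite pairs (1.38-fold, log2 0.46 ± 0.15, adjusted p = 0.00549 by edgeR). The difference between tissues was not shown to depend on diabetes at that stage (interaction 0.50, adjusted p = 0.618) or on the stage in diabetic concepti (-0.42, adjusted p = 0.258).

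The level in embryos can also be read as a percentage of that in yolk sacs. Hnf4a in embryos was 2.29% and 1.53% of its yolk sac mean in normal concepti of the earlier and later stage, and 2.61% and 1.89% in diabetic concepti. The 9 visceral endoderm markers, secreted proteins and endocytic receptors of the yolk sac, lay at medians of 2.24% and 1.77% in normal and 3.61% and 2.77% in diabetic concepti, with single markers between 0.687% and 5.18%. Hnf4a was within the range of these markers in each of the 4 groups. Gata4 was at 22.2% to 30.8%, Sox7 at 26.2% to 52.4%, Sox17 at 33.3% to 46.8%, Foxa2 at 38.9% to 53.9%, Gata6 at 64.4% to 87.9%, Hhex at 75.7% to 109.3% and Foxa1 at 434% to 1030%. None of these 7 was within the range of the markers.

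**Figure D2:**
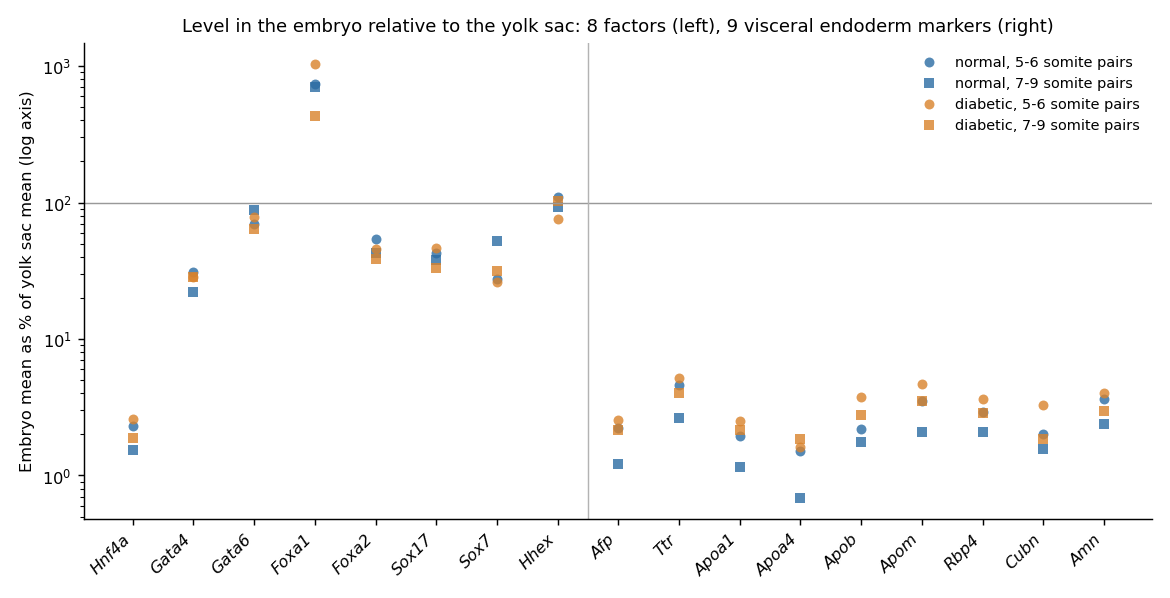
Mean normalized count in embryos as a percentage of that in yolk sacs (log axis) for the 8 factors and 9 visceral endoderm markers, with 1 point per gene, maternal condition and stage. Hnf4a lies among the markers, between 1.53% and 2.61%, and Foxa1 lies above the line at 100%.

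Embryo and yolk sac had been separated by dissection. Visceral endoderm RNA in each library was followed by a score, the mean of log2(normalized count + 1) over the 9 markers. The score was 2.53 to 7.93 in embryos and 9.80 to 11.7 in yolk sacs. Of the 9 markers, all but Cubn and Amn are also known as targets of HNF4A, so that the score is not independent of Hnf4a. Hnf4a in embryos increased with that score in each of the 4 groups (Pearson r = 0.68 and 0.75 in normal embryos of the earlier and later stage, 0.69 and 0.90 in diabetic embryos; permutation test, p adjusted over 32 relations of 0.018, 0.015, 0.018 and 3.2e-04). Spearman's rho was 0.74, 0.62, 0.64 and 0.90, with adjusted permutation p of 0.014, 0.055, 0.037 and 0.0022. Without the 2 embryos farthest from the median score, r was 0.72, 0.66, 0.55 and 0.87. As deviations from the litter mean, r was 0.73, 0.84, 0.62 and 0.89, with adjusted permutation p of 0.03, 0.004, 0.078 and 9.6e-04.

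Gata4 increased with the score in diabetic embryos of both stages (r = 0.64 and 0.70, adjusted permutation p = 0.018 for each; rho = 0.68 and 0.76, adjusted p = 0.024 and 0.014; r = 0.64 and 0.76 without the 2 farthest embryos). In normal embryos its r was 0.38 and 0.25 (adjusted p = 0.27 and 0.57), and the difference between the conditions was not tested. The other 6 genes had r between -0.50 and 0.55, and no Pearson relation of theirs passed (adjusted permutation p of 0.07 or higher). Gata6 in normal embryos of the earlier stage was nearest, with r = 0.55, and its rho of 0.68 and its r of 0.77 within litters passed (adjusted permutation p = 0.024 for each). Within litters the normal embryos of the later stage gave r of -0.77 for Sox7 and 0.68 for Foxa2 (adjusted permutation p = 0.014 and 0.032), against -0.50 and 0.10 without that adjustment for litters. Hhex had r of 0.51, 0.51, 0.38 and 0.49, each with an adjusted p of 0.13 or higher, and Foxa1 had r between -0.22 and 0.04. All 32 relations are over embryos that share litters.

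**Figure D3:**
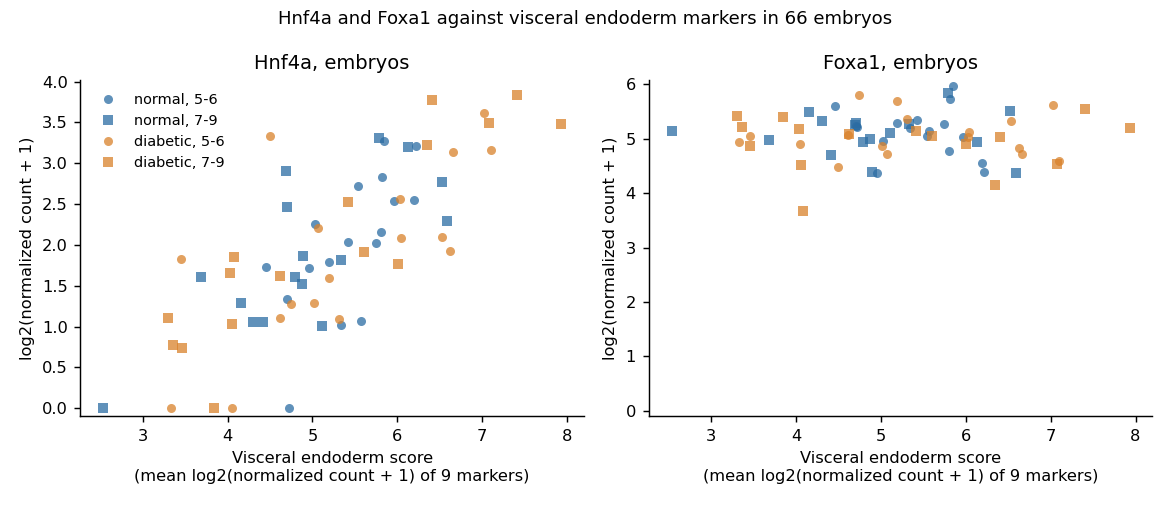
Level of Hnf4a and of Foxa1 against the visceral endoderm score in 66 embryos (both axes in log2 of the normalized count + 1; blue normal, orange diabetic, circles 5–6 and squares 7–9 somite pairs). Hnf4a increases with the score from embryos without any count, and Foxa1, between 11.7 and 61.6 normalized counts, shows no such slope.

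Embryos and yolk sacs of diabetic dams were set against those of normal dams stage by stage. Of the 8 genes, 1 was called in embryos with 5–6 somite pairs (1.46% of all tested genes were), 0 in embryos with 7–9 pairs (9.09%), 0 in yolk sacs with 5–6 pairs (0%) and 0 in yolk sacs with 7–9 pairs (0.0194%). DESeq2 also called 1, 0, 0 and 0, and an unadjusted p under 0.05 in edgeR was given to 1, 0, 0 and 2 members. Hnf4a and Sox7 did not pass the filter on low counts in embryos, and Foxa1 did not in yolk sacs.

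Hhex was lower in embryos of diabetic pregnancies at the earlier stage. The 17 normal embryos ranged from 25 through a median of 30.8 to 52.1 normalized counts, and the 17 diabetic embryos from 9.27 through 20.5 to 34.7. No normal embryo lay below 25, and the groups overlapped above that value. The means were 32.7 ± 7.24 and 21.5 ± 6.88, a decrease to 0.667 of the normal level (log2 -0.58 ± 0.13, SE, adjusted p = 0.0235 by edgeR). With 5 somite pairs the means were 33.1 ± 7.90 (n = 11) and 21.6 ± 7.74 (n = 13), and with 6 pairs 32.1 ± 6.51 (n = 6) and 21.4 ± 3.65 (n = 4).

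Littermates shared a dam, and with the litter as a random block in limma the log2 change was -0.63 with an adjusted p of 0.114, while counts summed per litter gave -0.62 and 0.317. These settings called 4 and 0 genes in all, against 161 in the test over embryos. An exact permutation test of litter means was chosen after seeing the data and run on each member, tissue and stage. For Hhex in these embryos, over all splits of 10 normal and 9 diabetic litters, it gave a difference of -0.68. The two-sided permutation p was 0.0012, and 0.039 after adjustment over these 32 tests. The 0.114 and 0.317 above were instead adjusted over all tested genes. Of the 9 diabetic litters, 8 had a mean under the normal median. Leaving out litter D28M53, N28M06 or N28M30 also ended the call, and over all 19 litters left out in turn the log2 change was -0.65 to -0.52 and the adjusted p 0.0153 to 0.0725. Without conceptus D28M27C and N28M07E it was -0.54 (adjusted p = 0.0299), and within litters whose titles carry the number 28 after the first letter it was -0.56 (adjusted p = 0.0208). In that order, these settings called 1.28% and 16% of all tested genes, against 1.46% in the test over embryos.

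Hhex is also expressed outside endoderm, so marker levels are given beside it. With the visceral endoderm score as a covariate the change in Hhex was -0.58 (adjusted p = 0.0211). In the same embryos 0 of 8 tested visceral endoderm markers, 0 of 10 gut endoderm markers and 0 of 8 endothelial markers passed, with median log2 changes of 0.19, -0.01 and -0.20. In this comparison 1.46% of all tested genes were called, so that a count of 0 in a list this short does not show unchanged cell types. The summed level of the 10 endothelial genes was 536.9 to 1126 with a median of 839 in normal embryos, and 494.9 to 1080 with a median of 638 in diabetic embryos. Egfl7, a secreted protein of endothelial cells, was nearest to a call among them (-0.58 ± 0.16, adjusted p = 0.0509). Of 6 genes listed as secreted products of anterior visceral and definitive endoderm, 0 of 5 tested passed (median -0.14). The summed level of the 6 genes was 99.5 to 499.1 with a median of 328 in normal embryos and 100.8 to 549.1 with a median of 170 in diabetic embryos. Lefty2, an inhibitor of Nodal on this list, had 157 ± 103.9 and 67 ± 109 (adjusted p = 0.225 by edgeR). The cells that carried Lefty2 were not determined, so that its level is not a measure of endoderm. The part of these lists in the lower Hhex was not tested.

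The other members of the list did not pass in embryos of the earlier stage. Gata4 had 42.4 ± 18.8 and 41.2 ± 12.9 normalized counts in normal and diabetic embryos, Gata6 had 62.6 ± 18.8 and 68.5 ± 21.1, and Foxa2 had 110 ± 21.5 and 100.5 ± 28.5. Their log2 changes were -0.02 (95% interval -0.39 to 0.35), 0.14 (-0.18 to 0.45) and -0.13 (-0.36 to 0.11). Sox17 and Foxa1 had intervals of -0.18 to 0.65 and -0.36 to 0.23. Tested without the filter, Hnf4a had a log2 change of 0.00 with an interval of -0.74 to 0.74, and Sox7 one of -0.04 with -0.64 to 0.55.

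At the later stage no member passed in embryos. Hhex had 21.1 ± 7.19 and 21.4 ± 4.78 normalized counts (log2 0.01, 95% interval -0.29 to 0.30), means close to the 21.5 of diabetic embryos with 5–6 pairs. Gata4 had the lowest unadjusted p (38.2 ± 9.60 and 44.8 ± 9.64, log2 0.22 ± 0.12, adjusted p = 0.222).

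In yolk sacs, Hnf4a had 160.4 ± 24.8 and 143.5 ± 27.9 normalized counts in normal and diabetic pregnancies with 5–6 somite pairs, and 219 ± 50.7 and 248 ± 33.6 with 7–9. The log2 changes were -0.16 (95% interval -0.35 to 0.04) and 0.18 (-0.02 to 0.39), with adjusted p of 0.652 and 0.52. At the later stage Gata6 (77.1 ± 17.9 and 95.8 ± 27.3, log2 0.31 ± 0.13) and Sox7 (14.4 ± 7.91 and 20.4 ± 10.5, log2 0.51 ± 0.25) had the lowest p of the list, and neither passed (adjusted p = 0.382 and 0.445). Hhex in yolk sacs had changes of -0.09 (-0.39 to 0.21) and -0.12 (-0.40 to 0.16). Summed trophoblast and decidua markers had medians of 2.06 in normal and 17.1 in diabetic yolk sacs with 5–6 pairs, and reached 15.9 and 340.6. With 7–9 pairs the medians were 3.52 and 7.07, and the highest values 41.5 and 727.4. The part of such tissue in these comparisons was not tested.

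**Figure D4:**
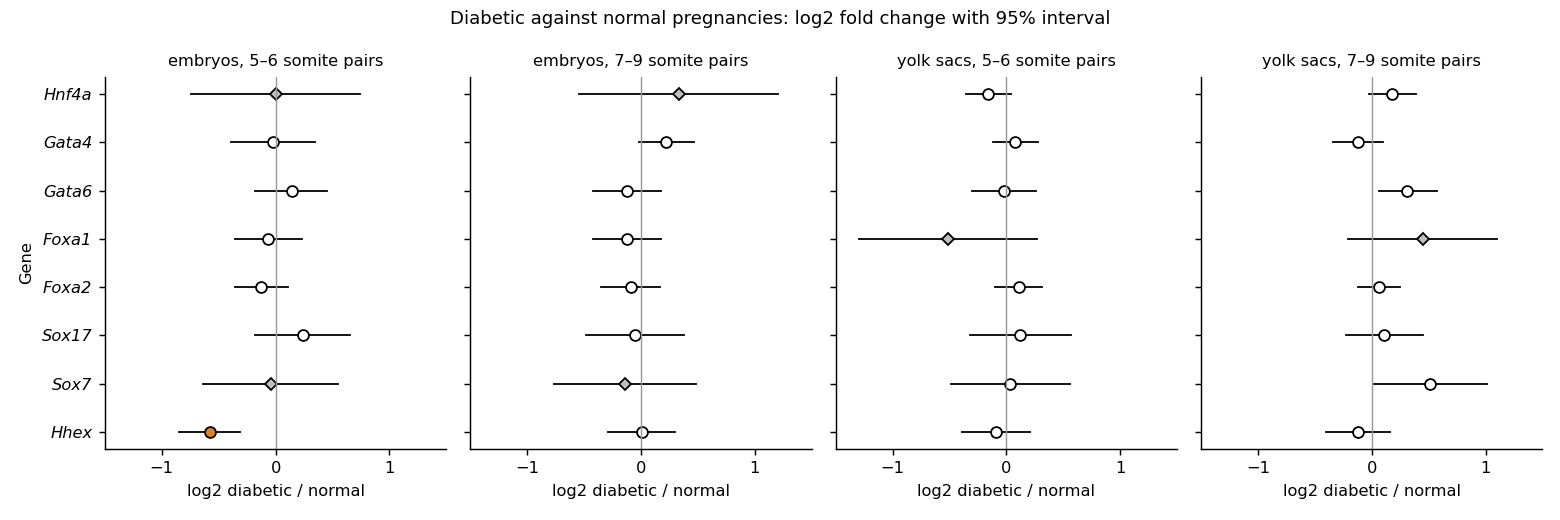
Log2 fold change of the 8 genes between diabetic and normal pregnancies with 95% intervals, by tissue and stage. The filled circle marks a call at an adjusted p under 0.05, open circles mark no call, and grey diamonds come from the test without the filter on low counts. Hhex in embryos with 5–6 somite pairs, at -0.58, is the single call.

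Whether the change of Hhex differed between stages was tested as an interaction. Of the 8 genes 1 was called in embryos (8.7% of all genes) and 0 in yolk sacs (0%, also 0 genes by DESeq2; 1 member, Hnf4a, had an unadjusted p under 0.05). Hhex in embryos had an interaction of 0.61 ± 0.20 (adjusted p = 0.0426 by edgeR), from a change under diabetes of -0.58 with 5–6 and 0.01 with 7–9 somite pairs. It lay near the threshold, with an adjusted p of 0.062 without the 2 concepti of different sex labels and of 0.0875 without the filter on low counts. This test is over embryos that share litters, and no fit of the interaction with the litter was made. Between the tissues, the change under diabetes differed for 0 members with 5–6 (0% of all genes) and 0 with 7–9 somite pairs (0.389%), by edgeR and by DESeq2. For Hhex at the earlier stage this term was 0.50 ± 0.20 with an unadjusted p of 0.0139 and an adjusted p of 0.618, so that a decrease particular to the embryo was not shown. An unadjusted p under 0.05 was given to 1 member with 5–6 and 2 members with 7–9 somite pairs.

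Stages were compared to see how the factors change as somites are added. Of the 8 genes 2 were called lower in normal embryos with 7–9 than with 5–6 somite pairs (15.1% of all genes were called), 1 lower in diabetic embryos (29.2%), 2 higher in normal yolk sacs (7.84%), and 1 higher and 1 lower in diabetic yolk sacs (33.7%). The medians over the members that passed the filter were -0.26, -0.10, -0.14 and -0.11 in this order, beside -0.03 to 0.01 over all tested genes. No member was called higher in embryos of the later stage.

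Hnf4a rose in yolk sacs under both conditions. Normal yolk sacs had 113.3 to 214.7 normalized counts with a median of 155.9 for 5–6 pairs and 112.3 to 329.7 with a median of 214 for 7–9 pairs, and the ranges overlapped. The rise was 1.37-fold (log2 0.45 ± 0.10, adjusted p = 0.00559 by edgeR). Diabetic yolk sacs had 70.9 to 176.4 with a median of 144.6 and then 178.7 to 305.5 with a median of 254.9, ranges that did not overlap. How many of all genes had separate ranges between these stages was not counted, and 33.7% of tested genes were called there. In diabetic yolk sacs the rise of Hnf4a was 1.73-fold (log2 0.79 ± 0.09, adjusted p = 8.5e-08).

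By somite pairs, from 5 to 9, Hnf4a had means of 153.6 ± 22.6, 172.9 ± 25.7, 230.3 ± 45.1, 186.4 ± 58.8 and 228.9 ± 50.6 in normal yolk sacs (n = 11, 6, 7, 4 and 5). In diabetic yolk sacs they were 144.7 ± 27.95, 139.5 ± 31.7, 236.2 ± 38.6, 251 ± 35.1 and 256.7 ± 29.4 (n = 13, 4, 4, 9 and 3). In diabetic yolk sacs the means from 7 pairs on lay above those at 5 and 6 pairs by more than the SD, and in normal yolk sacs the mean at 8 pairs was within the SD of that at 6. In litters with both stages, the later yolk sacs were higher in 7 of 7 normal and 3 of 3 diabetic litters. The call held with counts summed per litter (adjusted p = 0.0326 and 9.9e-04) and with any litter left out. The change between stages was not shown to differ between conditions (interaction 0.34 ± 0.14, adjusted p = 0.816). In embryos, tested without the filter on low counts, Hnf4a did not pass, with log2 changes of -0.15 (95% interval -0.86 to 0.56) in normal and 0.20 (-0.68 to 1.08) in diabetic embryos.

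Of 16 products of visceral endoderm known as targets of HNF4A and found in the table, 14 were tested. At the later stage 7 of 14 were called higher in normal and 12 of 14 in diabetic yolk sacs with none lower, where 7.84% and 33.7% of all tested genes were called in either direction, and the median log2 changes of the 14 were 0.53 and 0.69. No test of this list with counts summed per litter was made. Examples are Apoa1, the main protein of high-density lipoprotein (0.62 ± 0.15 and 0.84 ± 0.12), Afp, the fetal counterpart of albumin (0.73 ± 0.18 and 0.96 ± 0.18), and the fibrinogen chain Fga (0.78 ± 0.16 and 1.01 ± 0.16). Of the 9 visceral endoderm markers, all of which but Cubn and Amn are on that list too, 4 rose and 1 (Amn) fell in normal and 7 rose in diabetic yolk sacs. Of 5 genes of primitive erythroid cells, 3 were called higher in normal and 5 in diabetic yolk sacs, with medians of 0.64 and 0.93, and the share of each cell type in the rise was not tested.

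Gata4 rose in normal yolk sacs from 138 ± 24.2 to 172 ± 31.4 normalized counts (log2 0.32 ± 0.09, adjusted p = 0.0313 by edgeR), a call that ended with counts summed per litter (adjusted p = 0.172) and without litter N24M29, N28M03, N28M05 or N28M06. In diabetic yolk sacs it had 145.1 ± 31.3 and 157 ± 39.7 (log2 0.12, 95% interval -0.12 to 0.35). Hhex fell in diabetic yolk sacs from 28.4 ± 7.62 to 20.7 ± 5.33 (log2 -0.43 ± 0.14, adjusted p = 0.012), which ended with counts summed per litter (adjusted p = 0.169) and without litter D24M15 (adjusted p = 0.106). In normal yolk sacs the change of Hhex was similar in size and not called (log2 -0.41 ± 0.15, adjusted p = 0.0922). Foxa1, tested in yolk sacs without the filter, had 3.26 ± 2.42 and then 7.13 ± 4.66 normalized counts in diabetic yolk sacs (log2 1.01 ± 0.36, adjusted p = 0.0447 by edgeR). These came from 60 molecules over 17 libraries and 110 over 16, and no result with litters summed or left out is given for this call. In normal yolk sacs Foxa1 had 4.78 ± 4.17 and 4.86 ± 3.04 (log2 0.06, interval -0.66 to 0.78).

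In normal embryos, Hhex fell from 32.7 ± 7.24 to 21.1 ± 7.19 normalized counts (log2 -0.62 ± 0.14, adjusted p = 0.00252 by edgeR) and Foxa2 from 110 ± 21.5 to 83.7 ± 23.5 (-0.39 ± 0.12, adjusted p = 0.019). Foxa2 was lower at the later stage in 7 of 7 normal litters with both stages and Hhex in 6 of 7. With counts summed per litter neither passed (adjusted p = 0.0787 for Hhex and 0.0891 for Foxa2), and with the litter as a random block both did (0.00127 and 0.00252). Foxa2 was not called without litter N28M06 (adjusted p = 0.174). By somite pairs, Foxa2 over all embryos had means of 104.2 ± 27.8, 108 ± 19.0, 84.1 ± 18.2, 87.1 ± 23.9 and 68.6 ± 19.1 from 5 to 9 pairs.

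In diabetic embryos the levels of Hhex at both stages were close (21.5 ± 6.88 and 21.4 ± 4.78, log2 -0.01, 95% interval -0.30 to 0.29). Foxa2 had 100.5 ± 28.5 and 79.2 ± 20.2 there (log2 -0.33 ± 0.13, adjusted p = 0.0503), and without the 2 concepti of different sex labels the adjusted p was 0.03. Sox17 fell from 24.6 ± 11.2 to 15.4 ± 6.76 (log2 -0.63 ± 0.22, adjusted p = 0.0283), and lost the call with counts summed per litter (adjusted p = 0.111), without the filter (0.0508) and without litter D23M11, D28M24, D28M36 or D28M53. In normal embryos the change of Sox17 was -0.36 ± 0.20 and did not pass (adjusted p = 0.204). Heart and primitive erythroid markers rose in the same embryos, with 2 of 8 and 3 of 3 tested called in normal and 5 of 8 and 3 of 3 in diabetic embryos, and none lower, and their part in these falls was not tested.

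**Figure D5:**
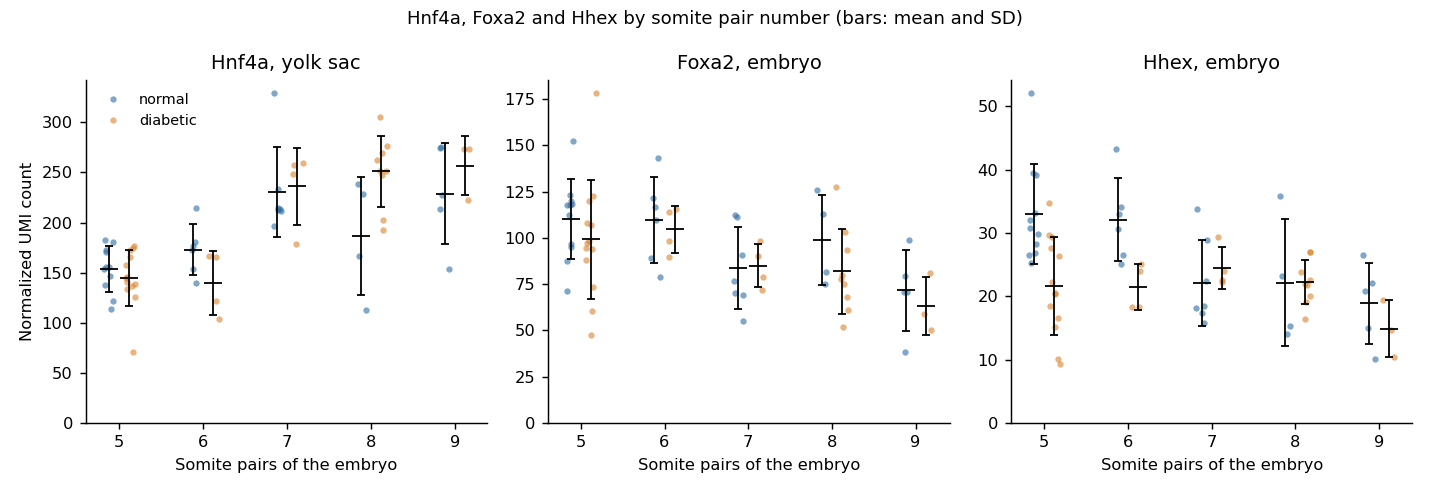
Normalized counts of Hnf4a in yolk sacs and of Foxa2 and Hhex in embryos by the number of somite pairs (blue normal, orange diabetic; points are libraries, bars mean ± SD; axes start at 0). Mean Hnf4a in diabetic yolk sacs is 139.5 at 6 and 236.2 at 7 pairs, in normal yolk sacs it is 172.9 at 6, 230.3 at 7 and 186.4 at 8 pairs, and Hhex in normal embryos is above that in diabetic embryos at 5 and 6 pairs, 33.1 against 21.6 and 32.1 against 21.4.

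Whether stage acted differently in the tissues was tested too, and 0 of 8 genes were called in normal (0.0435% of all genes) and 0 in diabetic concepti (1.81%), with an unadjusted p under 0.05 for 3 and 2 of them. DESeq2 called 0 in normal concepti and 1, Foxa1, in diabetic concepti (log2 1.14, adjusted p = 0.029), where edgeR gave 1.10 ± 0.36 and an adjusted p of 0.0792.

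Further endoderm factors gave the setting of these 8. Of 18 others, 8 or 9 were tested in each comparison of tissues, and 4 to 6 were lower in yolk sacs. Between these tissues 70.6% to 75.2% of all tested genes were called in either direction, so that this count does not set these factors apart. Foxa3, the third FOXA gene, followed Foxa2 and not Foxa1, with log2 differences of 2.91 to 3.35. Eomes, needed for definitive and early visceral endoderm, was higher in yolk sacs by 3.68 and 3.59 at the earlier stage in normal and diabetic concepti. The cells that carried Eomes were not determined, and some of these yolk sac libraries held trophoblast and decidua markers. Lower in yolk sacs were Otx2, a factor of anterior tissues (-8.15 to -6.64), Gata5, a relative of Gata4 and Gata6 (-1.76 to -1.40), Prox1, a factor of liver, lens and lymphatic endothelium (-1.44 to -0.89), and Cdx1, a factor of posterior tissues (-7.86 to -5.63). None of these further factors passed between diabetic and normal pregnancies.

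Gut endoderm markers did not share 1 direction between tissues. The epithelial genes Krt8, Krt18, Epcam and Cdh1 were higher in yolk sacs in each of the 4 comparisons, and Cdx2, a hindgut factor, was lower by 1.66 to 1.89 on the log2 scale. Trh, a peptide precursor that marks early gut endoderm, fell in embryos from the earlier to the later stage by 1.02 ± 0.26 in normal and 1.64 ± 0.28 in diabetic embryos (adjusted p = 0.0069 and 5.8e-05). Nkx2-1 of thyroid and lung endoderm had a mean of at most 1.57 normalized counts in any group. The GATA cofactor Zfpm1 was higher in yolk sacs by 1.54 to 1.84, and the cells that carried it were not determined. Summed primitive erythroid markers were higher there too, with medians of 8642 in yolk sacs and 41.4 in embryos of normal concepti with 5–6 somite pairs. Of 10 genes of the Nodal and FGF pathways upstream of these factors, 7 were tested in embryos of the earlier stage and 0 passed between conditions, where 1.46% of all tested genes were called.

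Across the 66 libraries of a tissue, genes with at least 10 normalized counts were ranked by the likeness of their pattern to that of each member (Pearson r of log2(normalized count + 1) as deviations from the means of the 4 groups, a description over libraries that share litters and differ in depth). In yolk sacs the nearest to Hnf4a were Tspan18, Soat2 and Decr2 (r = 0.67, 0.65 and 0.64), and Sox7 was the nearest of 10276 genes to Gata6 (r = 0.69). Sox17 came closest to Cyp26a1, which degrades retinoic acid (r = 0.79), and to Pdgfra (0.75). Hhex lay nearest to Usp22 (0.69) and Gata4 to Uck1 (0.63). In embryos the nearest of 10620 genes were Cbx7 for Sox17 (0.74), with Foxa1 next (0.65), Gli1, a target of hedgehog signaling, for Foxa2 (0.62), Rbpms for Gata6 (0.67), Cldn7 for Gata4 (0.63) and Tpcn1 for Hhex (0.55).

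For 2 concepti the embryo and the yolk sac each had a duplicate library, and these 4 libraries were left out of all comparisons. For the embryo of D24M15G, Foxa2 had 111 counts in the original and 115 in the duplicate, Gata6 117 and 120, and Hhex 32 and 26. Hnf4a in its yolk sac had 264 and 303, and in its embryo 12 and 5. The libraries of N28M06C had 313 and 379 for Foxa2 in the embryo, 128 and 186 in the yolk sac, and 94 and 106 for Hhex in the embryo. These are raw counts of libraries that differ in total.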

How the data were processed

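Embryos and visceral yolk sacs of NOD mice at E8.5 were profiled by sequencing of 3′ ends. The authors deposited whole-number counts of unique molecular identifiers per gene, with collapsed identifiers, no normalization and no pooling. The submitters' processing notes name STAR, HTSeq and the build mm10, and versions are not given in the sources used here. Library totals were 1017901 to 5658850 counts, so that genes with a handful of molecules carry large counting error. Gene positions follow GENCODE M21 on GRCm38.

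Groups followed the labels for tissue, condition and somite pairs. Counts were tested in edgeR 4.0.16 (R 4.3.3) with TMM factors, filterByExpr with a minimum count of 10 and the quasi-likelihood test, with Benjamini-Hochberg adjustment over all tested genes and a threshold of 0.05. Libraries of littermates are not independent, and p-values over libraries treat them so. Levels are counts divided by DESeq2 1.42.0 size factors over all 132 libraries, and log2 levels use a pseudocount of 1. Relations with the score used permutation tests with 100000 resamples, of which 1e-05 is the smallest p, and litter means an exact two-sided test. The scripts were tested on simulated data.

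Alternatives were DESeq2, other size factors, filters and pseudocounts, covariates, limma 3.58.1 with the litter as a random block, counts summed per litter, and each litter left out. Omission of the 2 concepti with different sex labels and the exact test of litter means were chosen after seeing the data. Embryo and yolk sac were paired by the conceptus named in their titles. Over 9477 genes the deviations of both tissues of a conceptus correlated at a median of 0.10 (-0.39 to 0.62, 33 of 66 over 0.1). The 8 genes were always named, with marker and pathway genes from fixed lists and the 3 nearest genes per member in each tissue. Members and lists were chosen with earlier results of these data known. One gene of these lists is not reported here.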

Additional observations from a re-analysis of the deposited data

Results flagged for a closer look

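Hhex in embryos was called for a difference in the change under diabetes between the 2 stages, in a test over embryos that share litters, with an interaction of 0.61 on the log2 scale (adjusted p = 0.0426 by edgeR and 0.0454 by DESeq2). The change under diabetes was -0.58 with 5–6 and 0.01 with 7–9 somite pairs. The adjusted p was 0.062 without the 2 concepti of different sex labels and 0.0875 without the filter on low counts. No fit of the interaction with the litter was made, and the change at 5–6 somite pairs was itself not called with the litter as a random block (adjusted p = 0.114) or with counts summed per litter (0.317).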

How the results depend on the processing

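Counts of members called, counts of relations with the score and the median percentage of embryo to yolk sac were set against other settings. Of these values 129 stayed near the reported one and 17, all counts of members called, did not. Near means equal or within 1.5 times for counts, and within the SD over genes and groups for the percentage. That SD includes Foxa1, at 434% to 1030%, and is too wide for the percentage to have failed. With size factors within tissue and stage, Gata6 in diabetic concepti with 5–6 pairs went from 77.95% to 95.8%. Hhex in normal concepti with 5–6 pairs went from 109.3% to 133.4%. Counts of 0 that stayed 0 are among the 129, as are the values of the percentage. Between diabetic and normal embryos of the earlier stage the count went from 1 to 0 both when counts were summed by litter and when the litter was a random block. Between stages in normal embryos it went from 2 to 0 with counts summed per litter, in normal yolk sacs from 2 to 1 without the filter, with counts summed per litter and with all 8 groups in 1 fit, and in diabetic yolk sacs from 2 to 1 with counts summed per litter. In diabetic embryos it went from 1 to 2 with DESeq2, other size factors, the score as a covariate, all 8 groups in 1 fit and without the 2 concepti, where Foxa2 joined Sox17, and to 0 without the filter and with counts summed per litter. The interaction of diabetes and stage in embryos went from 1 to 0 without the filter and without the 2 concepti, and that of tissue and stage in diabetic concepti from 0 to 1 with DESeq2. With each litter left out, these counts were 0 to 1 for diabetes in embryos of the earlier stage and 1 to 2, 1 to 2, 0 to 2 and 1 to 2 for stage in normal embryos, normal yolk sacs, diabetic embryos and diabetic yolk sacs. Fewer samples enter the sums per litter, and the cause of the other shifts was not tested.

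Changes of sign occurred among log2 differences that had not passed. Under diabetes in embryos these were Gata4 at the earlier stage (0.031 with the random block) and Hhex at the later stage (-0.033 with the title number as a covariate, -0.012 with number 28 alone, -0.020 with sums per litter, -0.021 with the score, -0.0030 with duplicates added). In yolk sacs they were Sox17 (with number 28 alone -0.0082 at the earlier and -0.022 at the later, with sums per litter -0.16 at the later stage) and Sox7 at the earlier stage (-0.037 with somite number and sex, -0.13 with the random block, -0.17 with sums per litter). Between tissues, Hhex in diabetic concepti of the later stage had 0.016 with DESeq2, 0.019 with all 8 groups, 0.028 without the filter and 0.015 with duplicates added. Between stages, the random block gave 0.0042 for Gata4 and 0.035 for Foxa1 in normal embryos, and Hhex in diabetic embryos had 0.0062 with that block, 0.023 with sums per litter and 0.024 with the score. Sox7 had -0.0062 for tissue and diabetes at the earlier stage without the 2 concepti, and Gata4 for tissue and stage in diabetic concepti had -0.00072 without the filter and -0.012 without the 2 concepti. The conceptus as a replicate block gave -0.028 for that term of Gata4, and this pairing changed no call.

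With each litter left out, signs also changed in these ranges. Under diabetes in embryos they were -0.13 to 0.092 for Gata4 and -0.12 to 0.0032 for Foxa1 at the earlier stage, and -0.18 to 0.0087 for Gata6, -0.30 to 0.043 for Sox17 and -0.091 to 0.098 for Hhex at the later stage. In yolk sacs they were -0.11 to 0.037 for Gata6, -0.060 to 0.37 for Sox17 and -0.15 to 0.17 for Sox7 at the earlier stage, and -0.12 to 0.19 for Sox17 at the later stage. Between stages they were -0.0033 to 0.19 for Gata6 and -0.096 to 0.026 for Foxa1 in normal embryos, -0.28 to 0.081 for Sox17 in normal yolk sacs, -0.070 to 0.054 for Hhex in diabetic embryos, and -0.031 to 0.18 for Gata6, -0.40 to 0.033 for Sox17 and -0.43 to 0.0027 for Sox7 in diabetic yolk sacs.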
